A study of Mus musculus with 6 samples.

Results

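The 10 genes described here encode the 2 cytoplasmic actins, Actb and Actg1, and 8 proteins that bind actin. Tmsb4x, Tmsb10, Pfn1 and Cap1 act on monomers, Cfl1, Wdr1 and Coro1a take filaments apart, and Cotl1 binds filaments. They are 10 of the 18491 genes in the deposited table, and were picked by name after the difference between the groups in these libraries was known. Their differences between the groups are therefore given as descriptions, with no test. RNA was sequenced from cells sorted as haematopoietic stem and progenitor cells from mouse bone marrow, 8 months after poly(I:C), an RNA mimic that induces interferon, was injected. The groups are 3 wild-type libraries and 3 Robo1 knockout libraries. Robo1 is a receptor for the Slit guidance proteins, and the design text describes its deletion with Mx1-cre after 3 doses of poly(I:C). The Mx1 promoter that drives this recombinase answers to interferon and is active in many cell types. The descriptions read WT and KO, while titles, genotype and treatment fields read shCtrl or scramble shRNA control for wild type, and shROBO1 or ROBO1, ROBO2 or ROBO3 knockdown for knockout. Strain, age, and whether wild-type mice carried Mx1-cre are not given in the sources used here, nor is whether each library came from its own animal, so the spread between libraries may be technical.

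Actin exists as monomers and as filaments, and cells keep a large monomer pool that can be turned into filaments quickly. Thymosins hold monomers in reserve, profilin and cyclase-associated protein recharge them and hand them to growing ends, and cofilin with its partners severs old filaments and returns monomers to the pool. In blood cells this cycle drives migration, adhesion and division, and Cdc42, the small GTPase named in the study's title, acts upstream of it. The actin genes are also classic targets of serum response factor (SRF), whose cofactors of the MRTF family bind actin monomers.

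The coding sequences of each related pair are shown because their likeness bears on how reads can be told apart. The first 60 coding bases follow, in lower case, with capitals at the bases where the partners of a pair differ (GENCODE vM21, GRCm38).
Actb: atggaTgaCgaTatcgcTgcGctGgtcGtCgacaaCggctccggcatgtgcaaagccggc
Actg1: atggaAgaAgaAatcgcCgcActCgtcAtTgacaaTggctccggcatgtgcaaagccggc
Tmsb4x: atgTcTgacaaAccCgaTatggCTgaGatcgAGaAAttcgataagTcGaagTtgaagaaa
Tmsb10: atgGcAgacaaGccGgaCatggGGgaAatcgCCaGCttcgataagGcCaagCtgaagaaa
Over the whole coding sequence of 1128 bases Actb and Actg1 were 88.7% identical, with 128 bases different and no identical run longer than 62 bases. The thymosin pair was 70.4% identical over 135 bases, with no identical run longer than 10 bases. Actb lies on chromosome 5 (142903115 to 142906754, minus strand), Actg1 on chromosome 11 (120345690 to 120348542, minus), Tmsb4x on the X chromosome (167207093 to 167209315, minus) and Tmsb10 on chromosome 6 (72957347 to 72958748, minus).

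RefSeq promoter windows (GRCm38.p6, 250 bases before to 50 after a start) were available for 8 of the 10 genes, in 11 windows, and not for Actb and Cotl1. A CArG box, the sequence bound by SRF, was present in 1 of these windows, that of Actg1, 90 bases upstream of the start. Of all 32851 windows 1.63% held one. GGGCGG, searched on both strands as CCGCCC too, was present in 10 of the 11 windows and in 35.7% of all windows. The 200 bases before the start are shown for Actg1, the one with the CArG box, and for Tmsb4x and Pfn1, without it. Capitals mark the CArG box (the run that starts CCAT) and every GGGCGG or CCGCCC. The stretches are chr11:120348496-120348695, chrX:167209219-167209418 and chr11:70654651-70654850, all on the minus strand and written 5′ to 3′.
Actg1: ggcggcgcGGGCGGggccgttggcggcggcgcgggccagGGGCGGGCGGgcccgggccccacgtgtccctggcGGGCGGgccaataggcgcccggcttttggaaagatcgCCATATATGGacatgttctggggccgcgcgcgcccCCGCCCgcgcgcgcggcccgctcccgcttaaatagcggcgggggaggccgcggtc
Tmsb4x: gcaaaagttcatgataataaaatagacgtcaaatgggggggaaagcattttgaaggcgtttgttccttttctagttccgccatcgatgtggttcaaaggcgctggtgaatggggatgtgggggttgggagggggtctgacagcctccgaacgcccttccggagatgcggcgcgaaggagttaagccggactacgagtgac
Pfn1: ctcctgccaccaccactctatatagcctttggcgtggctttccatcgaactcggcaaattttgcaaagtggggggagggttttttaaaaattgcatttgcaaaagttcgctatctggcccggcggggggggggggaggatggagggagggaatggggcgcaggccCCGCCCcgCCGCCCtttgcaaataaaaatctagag
These matches describe the letters of the windows and show no binding. Of the factors that act at such boxes, Srf was expressed at 0.394 ± 0.0263 CPM (counts per 1000000; mean ± SD, n = 3) in wild type and rose to 1.31 ± 0.503 CPM in knockout (n = 3, log2 fold change 1.73, SE 0.42, edgeR adjusted p = 0.0128). With total counts as the only scaling it did not pass (log2 0.59, edgeR adjusted p = 0.245). Mrtfa rose from 3.93 ± 0.471 to 6.225 ± 1.13 CPM (n = 3 each, log2 0.66, SE 0.18, edgeR adjusted p = 0.0203), but was called lower with total counts (log2 -0.47, edgeR adjusted p = 0.0474). Elk1, Elk3, Elk4 and Mrtfb, the other SRF cofactors listed, did not pass with TMM (log2 0.69, -0.59, -0.35 and -0.85). With total counts Elk3 (-1.72), Elk4 (-1.48) and Mrtfb (-1.98) were called lower and Elk1 (-0.46) did not pass.

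Total counts per library ran from 42235077 to 58106099. The 2 groups differed in composition, so every value depends on how libraries are scaled, and 2 scalings are given. TMM centres most genes near no change, with a median log2 fold change over the 15474 genes tested of -0.09. Division by total counts puts that median at -1.22. Stem and progenitor markers were present in both groups, with Kit at 13.7 ± 1.78 and 16.9 ± 0.276 CPM and Cd34 at 106 ± 4.54 and 102 ± 0.483 CPM (n = 3 each, wild type first). Fgd5 was close to the detection limit, at 7, 7 and 22 counts in wild type and 0 in every knockout library, and did not pass the filter. Levels in CPM and calls in this paragraph are with TMM unless total counts are named. The summed level of the 10 such markers ran from 200.3 to 205 CPM in wild type and from 222 to 229 CPM in knockout (2 of 9 tested rose and 1 fell, while with total counts 0 were called higher and 8 lower). The targeted gene, Robo1, is not analysed here. Of the marker lists for other cells, the summed level of 6 eosinophil genes ran from 5534 to 6684 CPM in wild type against 41730 to 47420 CPM in knockout (5 of 5 tested rose, and 3 were called higher with total counts). Most of it was Prg2, at 5155 ± 595 and 39690 ± 2839 CPM (n = 3 each). The sum of 9 neutrophil genes ran from 2353 to 2729 and 8372 to 8694 CPM (6 of 9 rose and 0 fell, while with total counts 1 was called higher and 5 lower). Most of that sum was S100a8, at 2120.0 ± 164 and 7660.0 ± 146.5 CPM (n = 3 each), and Camp, Ltf and Mmp8 did not pass. Ccr3, the chemokine receptor of mature eosinophils, was near 0, at 0.0964 ± 0.112 and 0.0464 ± 0.0804 CPM. The 9 erythroid genes ran from 1432 to 1923 and 4769 to 5735 CPM (4 of 9 rose, all of them globin genes, and 1 fell, while with total counts 4 were called higher and 4 lower). The 10 B lineage genes ran from 698 to 789 and 1016 to 1208 CPM, most of it Jchain, at 641 ± 37.8 and 992.5 ± 108 CPM (n = 3 each), the 1 of 9 tested that rose. Cd79a, Cd79b and Ebf1 fell, and with total counts 0 were called higher and 7 lower. The 10 monocyte and macrophage genes ran from 131 to 141.5 and 126 to 132 CPM (1 of 9 tested rose and 1 fell), the 9 megakaryocyte genes from 157 to 166 and 171 to 195 CPM (1 of 8 rose and 2 fell), and the 7 T and NK cell genes from 13.75 to 15.2 and 8.02 to 9.30 CPM (0 of 5 rose and 1 fell, with Cd4 at 20, 0 and 3 counts in wild type and 0 in every knockout library). Genes of smooth muscle, fibroblasts and endothelium ran from 16.5 to 18.1 and 12.95 to 17.5 CPM (0 of 3 tested rose or fell, with Tagln at 0, 17 and 21 counts in wild type and 0 in every knockout library). With total counts 0 genes of these last 4 lists were called higher, and 6, 6, 5 and 2 lower. The part of these cells in the differences below was not tested, and in such bulk samples more cells of a type and more RNA per cell cannot be told apart.

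All 10 genes passed the filter on low counts, and with TMM scaling all 10 were higher in knockout, with no overlap between the groups. All 10 met the call rule (edgeR adjusted p under 0.05, higher), as did 17.2% of all genes tested. For 22.2% of all genes every knockout library lay above every wild-type library. With total counts 6 of the 10 met the rule as higher and 2 as lower, where 4.24% and 70.7% of all genes did (74.9% in either direction, against 31.7% with TMM). Groups did not overlap with knockout above for 7 genes and below for 2 with total counts, and for 7 and 3 in FPKM, the deposited length-scaled value. Over all genes these shares were 4.85% and 76.1% with total counts and 4.82% and 74.3% in FPKM. Because the genes were chosen on this contrast, nothing is read from these counts. The median log2 fold change of the 10 was 1.65 with TMM and 0.52 with total counts. The mean level of a gene over the 6 libraries went with the difference across the whole table. Among the 147 genes with a mean of at least 1000 CPM over the 6 libraries, which include Actb, Actg1, Tmsb4x, Pfn1 and Cfl1, 98.0% were called higher with TMM, at a median log2 fold change of 1.57. Among the 998 genes from 100 to 1000 CPM, with Tmsb10, Wdr1 and Coro1a, 69.9% were called higher, at a median of 0.52. Knockout libraries enter this mean, so a rise by itself lifts a gene's class, and these shares are in part built in. Actb, Actg1 and Pfn1, at means of 468, 345 and 672 CPM in wild type, reached 1000 CPM only through knockout. The part of level in the differences of the 10 genes was not tested.

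**Figure D1:**
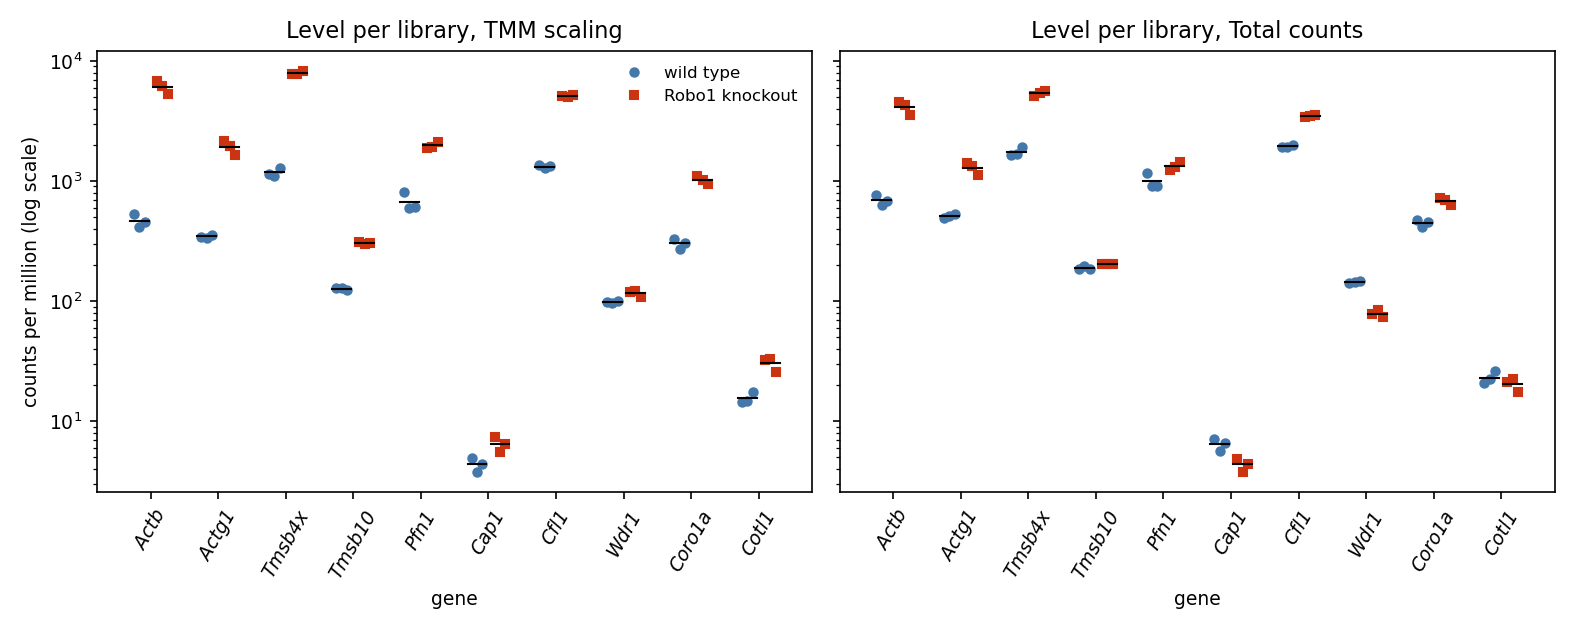
Level of each of the 10 genes in each library, in CPM on a log axis, with TMM scaling (left) and total counts (right). Circles are wild-type libraries, squares knockout libraries and bars group means (n = 3). Actb shows the widest gap under both scalings, whereas Cap1 and Wdr1 lie above wild type on the left and below it on the right.

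Actb, cytoplasmic beta-actin, stood at 529, 415 and 459.5 CPM in the 3 wild-type libraries and at 6843, 6232 and 5262 CPM in the 3 knockout libraries with TMM scaling. Every knockout library lay far above every wild-type library, although both groups spread more than most of the other genes did (coefficient of variation 12.3% and 13.0%). The log2 fold change was 3.71 (SE 0.12), and 0.278% of the genes tested had a larger one. With total counts Actb was still 5.96-fold higher (log2 2.58, SE 0.10). Actg1, cytoplasmic gamma-actin, stood at 344, 335 and 356 CPM in wild type and at 2141, 1964 and 1644 CPM in knockout. Its log2 fold change was 2.47 (SE 0.10) with TMM and 1.34 (SE 0.09) with total counts. In both actin genes knockout replicate 3 was the lowest knockout library and replicate 1 the highest. Together the 2 genes took 0.125%, 0.114% and 0.122% of all counts in wild type against 0.593%, 0.5615% and 0.470% in knockout.

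The balance between the 2 actin transcripts also differed, in a measure that no scaling of libraries can alter. The ratio of Actb to Actg1 counts was 1.54, 1.24 and 1.29 in wild type against 3.20, 3.17 and 3.20 in knockout. The FPKM values gave ratios of 1.53, 1.19 and 1.25 against 3.07, 3.03 and 3.19. The 3 knockout libraries were closely alike and lay far above the wild-type libraries, of which replicate 1 was the highest. Pseudogenes limit how finely the actin genes can be counted. Of the 50-base stretches of the longest coding transcript, 14.2% for Actb and 56.7% for Actg1 also occur in transcripts of other annotated genes. The 12 processed pseudogene rows that share such stretches held counts equal to between 14.9% and 15.7% of those of Actg1 in wild type and between 25.7% and 28.1% in knockout. With those rows added to Actg1 the ratio was 1.33, 1.08 and 1.12 in wild type against 2.54, 2.48 and 2.535 in knockout, so the groups remained apart. That sum was added after the values were seen. Muscle actin transcripts were close to the detection limit. Acta2, of smooth muscle, was at 0.240 ± 0.0356 CPM in wild type against 0.575 ± 0.380 in knockout (edgeR adjusted p = 0.24, n = 3 each), and Acta1, of skeletal muscle, had between 0 and 6 counts in any library and did not pass the filter.

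**Figure D2:**
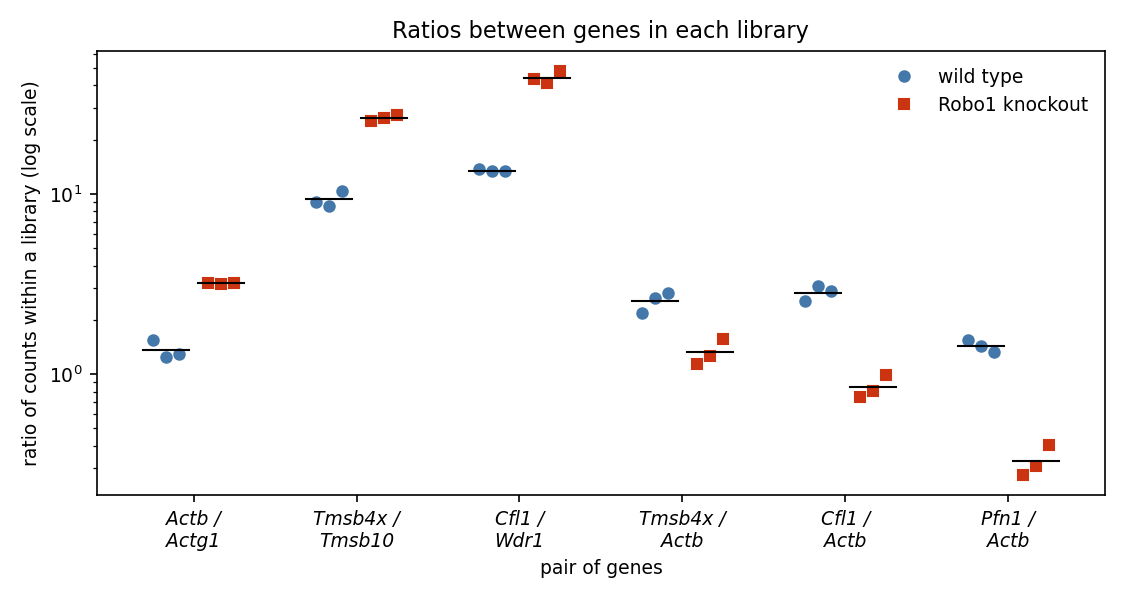
Ratio of the counts of 2 genes within each library, on a log axis, for 6 pairs of genes. Circles are wild-type libraries, squares knockout libraries and bars group means (n = 3). Actb over Actg1 sits at 1.24 to 1.54 in wild type against 3.17 to 3.20 in knockout, and Pfn1 over Actb falls from above 1 to below 1.

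Tmsb4x encodes thymosin beta-4, the main monomer-sequestering peptide of blood cells. It stood at 1148, 1098 and 1293 CPM in wild type and at 7805, 7844 and 8277 CPM in knockout. All knockout libraries lay within a narrow band (coefficient of variation 3.29%) above every wild-type library. The log2 fold change was 2.76 (SE 0.07) with TMM and 1.62 (SE 0.07) with total counts. None of the 50-base stretches of its longest coding transcript occurs in a transcript of another annotated gene. Tmsb10, thymosin beta-10, has a like activity and stood at 128.1, 128.5 and 124.0 CPM in wild type and at 309, 298 and 302 CPM in knockout. Its log2 fold change was 1.26 (SE 0.06) with TMM but 0.12 (SE 0.06) with total counts, with both groups still apart at 184 to 195 and 204 to 205 CPM of total counts. Of the 50-base stretches of Tmsb10, 43.5% also occur in transcripts of 5 other annotated genes. The 2 of these in the deposited table held counts equal to 7.94% of those of Tmsb10 over all libraries. How reads in such stretches were counted is not known here, which limits the ratio that follows. Tmsb4x counts were 8.96, 8.55 and 10.4 times those of Tmsb10 in wild type against 25.3, 26.3 and 27.4 times in knockout. The difference within the thymosin pair was thus of the same order as that within the actin pair, with the X-linked gene in the part of Actb.

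Pfn1, profilin-1, loads monomers with ATP and delivers them to growing filament ends. It stood at 812.5, 596 and 607 CPM in wild type and at 1882, 1923 and 2124 CPM in knockout. Wild-type replicate 1 was well above the other two, and without it the log2 fold change moved from 1.56 (SE 0.12) to 1.73. With total counts it was 0.43 (SE 0.10), and wild-type replicate 1, at 1167 CPM, came close to the lowest knockout library, at 1242 CPM. Cap1, cyclase-associated protein 1, recycles cofilin-bound monomers and was the scarcest of the 10 genes. It had only 306 to 378 counts per library in wild type against 186 to 278 in knockout, or 4.97, 3.74 and 4.365 CPM against 7.38, 5.54 and 6.48 CPM. Its direction depended on the scaling, with a log2 fold change of 0.57 (SE 0.17) with TMM and -0.56 (SE 0.17) with total counts. Cap1 shares 3.0% of its 50-base stretches with 2 other genes, chiefly Ppt1, and how reads in such stretches were counted is not known here.

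Cfl1, cofilin-1, severs and disassembles filaments. It stood at 1348, 1272 and 1328 CPM in wild type and at 5129, 5051 and 5217 CPM in knockout, the tightest of the abundant genes (coefficient of variation 2.99% and 1.62%). Its log2 fold change was 1.96 (SE 0.05) with TMM and 0.83 (SE 0.05) with total counts. Of the 50-base stretches of Cfl1, 23.0% also occur in transcripts of 5 other annotated genes. The 3 of these in the deposited table held counts equal to 0.418% of those of Cfl1. Wdr1, also called Aip1, speeds disassembly by cofilin. It stood at 98.6, 95.4 and 99.4 CPM in wild type and at 118.5, 122 and 108 CPM in knockout, a small gap at a log2 fold change of 0.25 (SE 0.07). With total counts Wdr1 was lower in knockout, at 78.2, 83.65 and 73.7 CPM against 142, 145 and 148 CPM (log2 -0.88, SE 0.07). Cfl1 counts were 13.7, 13.3 and 13.4 times those of Wdr1 in wild type against 43.3, 41.4 and 48.1 times in knockout, so the 2 partners did not keep their proportion in any knockout library.

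Coro1a, coronin-1A, is a leukocyte protein that joins cofilin and Wdr1 in disassembly. It stood at 328, 272 and 305 CPM in wild type and at 1098, 1016 and 936 CPM in knockout, with log2 fold changes of 1.75 (SE 0.09) and, with total counts, 0.62 (SE 0.07). Cotl1, coactosin-like protein 1, binds filaments and belongs to the same fold family as cofilin. It stood at 14.5, 14.6 and 17.4 CPM in wild type and at 32.2, 32.8 and 25.8 CPM in knockout, a log2 fold change of 0.96 (SE 0.12). With total counts it was the only one of the 10 whose groups overlapped, at 20.9, 22.2 and 25.9 CPM against 21.2, 22.5 and 17.5 CPM. The authors' deposited table classes 7 of the 10 as UP and Cap1, Cotl1 and Wdr1 as STABLE.

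**Figure D3:**
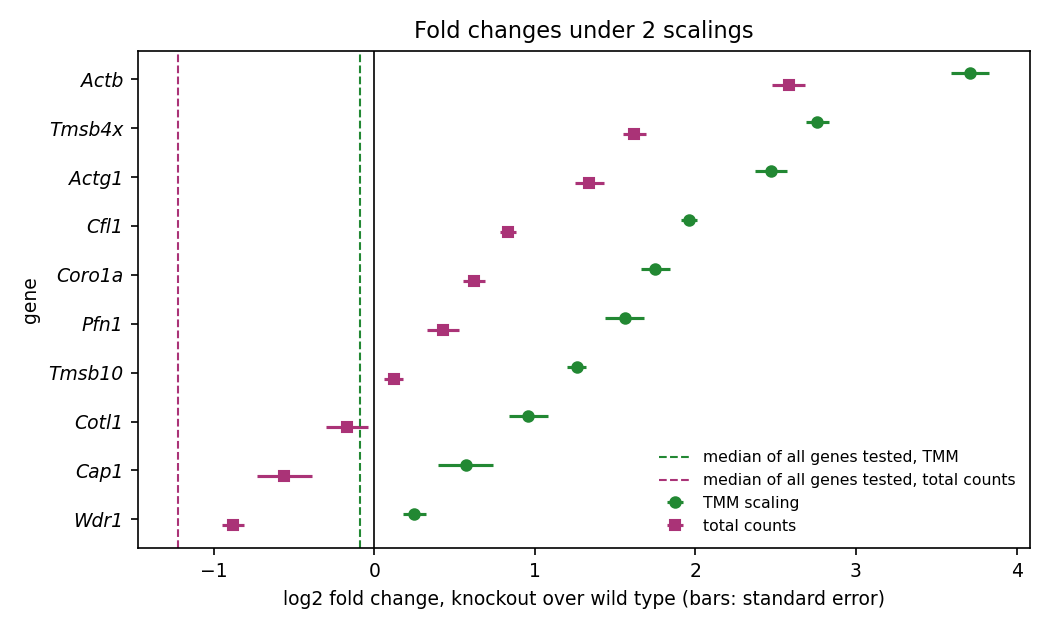
Log2 fold change of each gene, knockout over wild type, with TMM scaling (circles) and total counts (squares); bars are standard errors. Dashed lines mark the median of all 15474 genes tested, at -0.09 and -1.22, and every one of the 10 genes lies to the right of the line of its own scaling.

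A change of scaling moves all genes by nearly the same amount. Distances from the median gene are therefore alike under both scalings by construction, and their likeness is no further evidence. Actb lay 3.80 above the median log2 fold change of all genes under either scaling, Tmsb4x 2.85, Tmsb10 1.35, Pfn1 1.65, Cap1 0.66 and Wdr1 0.34. As a set the 10 genes took 0.683%, 0.641% and 0.685% of all counts in wild type against 1.67%, 1.68% and 1.625% in knockout. Within that set the largest gains in mean share were those of Tmsb4x, from 0.175% to 0.5385%, Actb, from 0.0691% to 0.412%, and Cfl1, from 0.195% to 0.346%. Tmsb10 went from 0.0188% to 0.0204%. The share of Pfn1 with Cap1 was 0.117%, 0.0909% and 0.0911% in wild type against 0.125%, 0.132% and 0.145% in knockout.

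Levels of different genes can be set side by side only per length. In wild-type libraries the FPKM order was Tmsb4x (1898 ± 188.5), Cfl1 (1195 ± 70.7), Pfn1 (978 ± 143), Actb (300.3 ± 24.9), Tmsb10 (275 ± 11.0), Coro1a (228 ± 15.8), Actg1 (228 ± 14.6), Wdr1 (39.0 ± 1.33), Cotl1 (12.6 ± 0.950) and Cap1 (2.33 ± 0.152; mean ± SD, n = 3). In that order the libraries of Cfl1 and Pfn1 overlapped, as did those of Actb and Tmsb10 and those of Coro1a and Actg1. In knockout the FPKM order was Tmsb4x (5854 ± 250), Cfl1 (1838 ± 95.8), Actb (1791 ± 214), Pfn1 (1324 ± 82.3), Actg1 (580.0 ± 81.4), Coro1a (348.5 ± 22.7), Tmsb10 (299 ± 1.67), Wdr1 (21.2 ± 1.26), Cotl1 (10.7 ± 1.33) and Cap1 (1.496 ± 0.469; n = 3). Only the libraries of Cfl1 and Actb overlapped among neighbours in the knockout order. Actb thus stood near Tmsb10 in wild type and near Cfl1 in knockout. Cfl1 FPKM was 3.78, 4.52 and 3.71 times that of Actb in wild type against 0.877, 1.04 and 1.20 times in knockout, and Pfn1 FPKM went from 3.52, 3.30 and 2.94 times to 0.633, 0.711 and 0.907 times. Every wild-type library thus had several times more FPKM of cofilin and profilin than of beta-actin, and no knockout library did. In counts Cfl1 was 2.55, 3.07 and 2.89 times Actb in wild type against 0.750, 0.8105 and 0.991 times in knockout. The mean ratio in knockout was 0.3 of that in wild type in counts but 0.26 in FPKM. The 2 units thus did not move alike for Cfl1, and its place in the FPKM order is less certain. They did not for Cap1 either, where wild-type replicate 1 had the highest CPM of total counts in its group (7.13) and the lowest FPKM (2.165).

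Within a group the 10 genes did not move as a block. Knockout replicate 3 held the lowest Actb, Actg1, Coro1a and Cotl1 of its group and also the highest Tmsb4x, Pfn1 and Cfl1. In wild-type replicate 1 the highest deviation from the group mean was that of Pfn1 (0.29 on the log2 scale). Wild-type replicate 2 lay below its group mean for 9 of the 10 genes, at a median deviation of -0.09 with TMM. The genes were short and rich in G and C beside the other genes tested, with 9 of 10 below the median exon length of 3549 bases and 9 of 10 above the median GC content of 49.3%. After a correction for exon length and GC content the median log2 fold change of the 10 was 1.61. Single genes moved in both directions. Tmsb10 went from 1.26 to 0.97, Tmsb4x from 2.76 to 2.58 and Cotl1 from 0.96 to 0.79. Wdr1 went from 0.25 to 0.4 and Cfl1 from 1.96 to 2.02.

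Few of the other genes of the actin cytoskeleton showed differences of this size. Of 143 genes in 10 lists, 112 were tested, 24 rose, 12 fell and 76 did not pass with TMM (edgeR), which is 21.4% higher and 10.7% lower beside 17.2% and 14.4% of all genes. The median log2 fold change of these genes was 0.05, near the -0.09 of all genes, and 1 of them, Srf, lay above the median of the 10 genes described. With total counts 88 met the rule as lower and 2, Tagln2 and Myl12b, as higher, and the median was -1.09 beside -1.22. The lists were not matched in level to the 10 genes, which were chosen on this contrast. Over all genes the median with TMM was -0.18 from 1 to 10 CPM and -0.05 from 10 to 100 CPM. Both lie below the medians of the higher classes given above. The part of level in this comparison was not tested.

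Among 13 other monomer-binding and depolymerising genes tested 3 rose, 1 fell and 9 did not pass. Dstn, destrin, a close relative of cofilin, rose from 151 ± 15.7 to 385 ± 16.1 CPM (n = 3 each, log2 1.36, SE 0.08, edgeR adjusted p = 2.38e-06). The coronin gene Coro1b (log2 0.98) and the twinfilin gene Twf2 (0.70) also rose, and Gmfb, a glia maturation factor that acts on branched filaments, fell (-0.82). With total counts the 3 stood at 0.22, -0.15 and -0.43, the last a call in the other direction, and Gmfb at -1.96. A list of 12 kinases and phosphatases around cofilin holds some, Rock1 among them, that do not act on it directly. Of these 12 genes 0 rose and 1, the kinase gene Rock1, fell with TMM (log2 -0.38, edgeR adjusted p = 0.0407). With total counts 10 were called lower and 0 higher. Pak2, Limk2 and Pdxp, which did not pass, stood at 0.26, 0.29 and -1.19.

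Of 17 capping and severing genes 2 rose, 2 fell and 13 did not pass, while with total counts 14 were called lower and 0 higher. Capzb, the beta subunit of capping protein, rose from 314.5 ± 3.84 to 519.5 ± 9.91 CPM (n = 3 each, log2 0.72, SE 0.05; -0.41 with total counts), as did Flii (0.50; -0.64). The adducin gene Add1 (log2 -0.52) and the tropomodulin gene Tmod3 (-0.45) fell under both scalings. Of 16 formins and WASP family genes, which start new filaments, 0 rose, 4 fell and 12 did not pass, while with total counts 15 were called lower and 0 higher. Those that fell were Diaph1 (log2 -0.51), Wasf2 (-0.40), Wasl (-0.93) and Spire1 (-1.54, named after its value was seen), all also lower with total counts. Wipf1, a WASP-interacting protein gene, stood at -0.62.

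Of 21 filament crosslinkers and tropomyosins 6 rose, 1 fell and 14 did not pass, while with total counts 1 was called higher and 15 lower. Tagln2, transgelin-2, rose from 174 ± 11.8 to 495 ± 27.4 CPM (n = 3 each, log2 1.51, SE 0.07, edgeR adjusted p = 4.43e-07) and was also called higher with total counts (0.38). The calponin gene Cnn2 (log2 1.20; 0.07 with total counts), the plastin gene Lcp1 (0.50; -0.63) and the tropomyosin gene Tpm3 (0.47; -0.66) rose with TMM. Actn4, an alpha-actinin gene named after its value was seen, was the one that fell (-0.58; -1.72). Of 5 non-muscle myosin II genes 3 rose, all light chains. Myl12b went from 230.2 ± 20.9 to 579 ± 21.6 CPM (n = 3 each, log2 1.33, SE 0.08), Myl12a stood at a log2 fold change of 1.01 and Myl6 at 1.04, while the heavy chain gene Myh9 did not pass (0.13). With total counts Myl12b was called higher (0.20), and Myl12a (-0.12) and Myl6 (-0.09) did not pass.

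New actin is folded by the chaperonin CCT with prefoldin. Of 17 genes of actin folding and maturation 8 rose, 2 fell and 7 did not pass. Cct8 (log2 1.01), Cct5 (0.75), Cct3 (0.68) and the prefoldin gene Pfdn5 (0.96) rose, though with total counts all 4 stood below 0 (-0.13, -0.39, -0.45 and -0.17) and the falls of Cct5 and Cct3 were calls. Of the 17, 15 were called lower with total counts and 0 higher. The 2 that fell, named after their values were seen, were the prefoldin genes Pfdn4 (-0.78) and Pfdn1 (-0.26). Of 4 actin-related proteins of chromatin complexes 0 rose, 1 (Actr8, log2 -0.40) fell and 3 did not pass, with Actl6a at 0.04, Actr6 at -0.19 and Actr5 at -0.55.

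**Figure D4:**
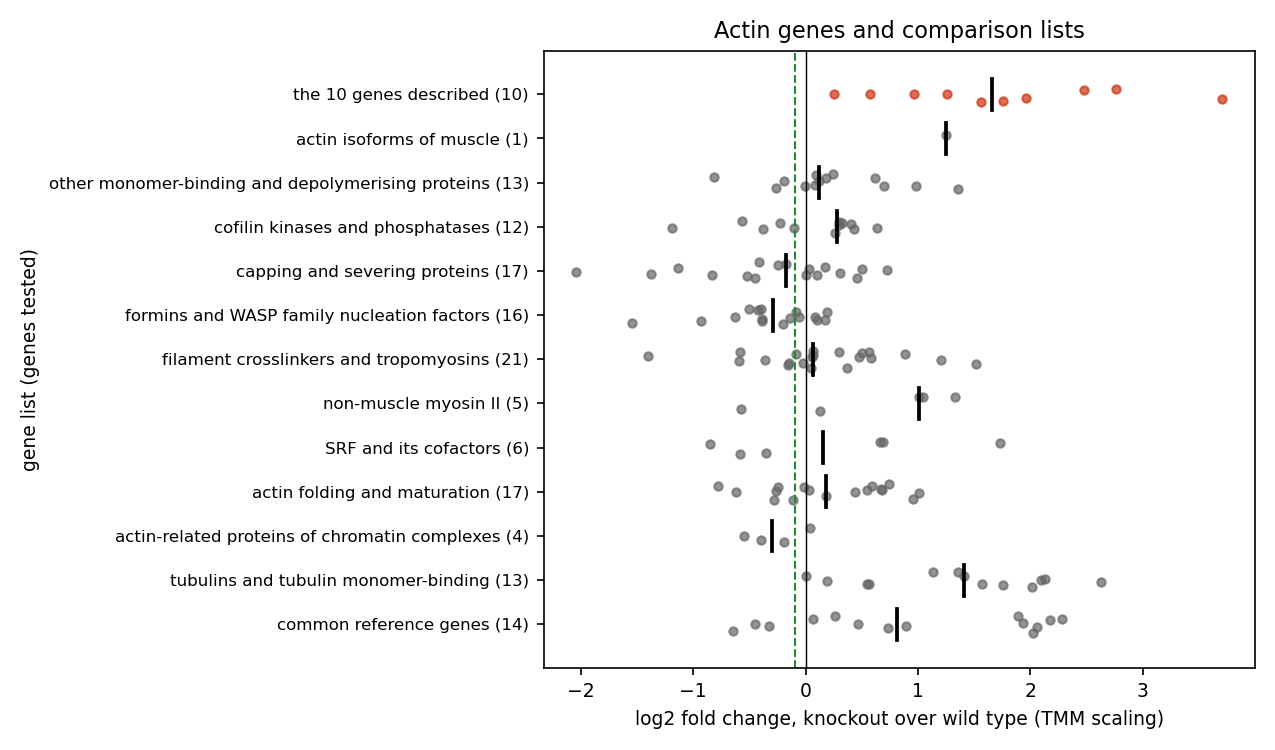
Log2 fold change with TMM scaling of every gene tested in each list, knockout over wild type; points are genes, black bars list medians and the dashed line the median of all genes tested (-0.09). The 10 genes described have a median of 1.65, and of the other actin lists with more than 1 gene tested the myosin light and heavy chains have the highest, at 1.01.

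Actb is often used as a reference gene for scaling RNA measurements, and other genes used in that way also differed. Of 14 common reference genes 10 rose, 2 fell and 2 did not pass with TMM. The cyclophilin gene Ppia (log2 2.28), B2m of MHC class I (2.18), the ribosomal genes Rplp0 (2.06) and Rps18 (1.89), the glycolytic gene Gapdh (2.02) and the elongation factor gene Eef1a1 (1.93) rose with TMM and were also called higher with total counts. Hprt (0.89), Ywhaz (0.73), Pgk1 (0.47) and Sdha (0.26) rose with TMM and stood below 0 with total counts. There Ywhaz (-0.4), Pgk1 (-0.67) and Sdha (-0.88) were called lower, and Hprt (-0.24) did not pass. Of the 14 genes, 6 were called higher and 7 lower with total counts. Tbp (-0.64) and Polr2a (-0.45) fell. Gusb and Tfrc did not pass with TMM (0.06 and -0.33) and were called lower with total counts. Actb, at 3.71, lay beyond every one of them.

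The genes most like Actb over the 6 libraries, by the root mean square difference of log2 CPM centred on the wild-type mean, were Ighv1-15 (0.13), Ear1 (0.14), Igkv8-27 (0.15), Igkv6-32 (0.16) and Igkv14-111 (0.16). They are 4 immunoglobulin variable genes and an eosinophil ribonuclease gene, families whose near-copies can share reads. Those most like Tmsb4x were mt-Co3 (0.04), H2-Q1 (0.10), Igkv12-89 (0.12), Fos (0.13) and Epx (0.14). The likeness rests on 6 libraries in 2 groups, so it mostly picks genes with a log2 fold change of like size.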

How the data were processed

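The members and gene lists were chosen with earlier results of these data known. Per the labels' protocols, libraries came from a TruSeq kit for RNA and were read on a NovaSeq. The authors deposited 1 table with raw read counts per gene and library, length-scaled values, and the columns of their own comparison. Build mm10, the counter featureCounts 2.0.1, the aligner HISAT2 2.2.1, the read trimmer fastp 0.22.0 and the package DESeq2 1.32.0 are listed in the submitters' processing notes. Order, options and strand setting are not given in the sources used here. The deposited length-scaled values carry no unit and were taken as FPKM: for genes with 1 annotated transcript, at least 98.5% lay within 1% of one multiple of count over exon length, with a divisor 1.19 to 1.22 times the library total. The authors' log2 fold changes were used only to describe their table, and their mean signal, test score and p-values, all deposited beside them, were not used.

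The deposited counts went into edgeR 4.0.16 under R 4.3.3 (filterByExpr, TMM, quasi-likelihood test, two-sided, group as the only term), over 15474 genes, with a Benjamini-Hochberg adjusted p under 0.05 as the call. The standard error is the log2 fold change over the square root of F. CPM values use TMM-scaled library sizes unless total counts are named. Log2 CPM for likeness used a prior count of 2. All replicate pairs differed by more than sampling noise. Named genes are the 10 members, up to 4 genes of lowest p and at least 1 CPM in each list, whole short lists (some other reference genes are not reported here), and the 5 called genes nearest to Actb and Tmsb4x without predicted models, clones and pseudogenes. Positions and shared 50-base stretches come from GENCODE vM21 (GRCm38), promoters from RefSeq. Alternatives covered scaling, test, filters, left-out libraries, a replicate block, FPKM with limma 3.58.1 and a length and GC correction. The fit was tested on simulated counts.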

Additional observations from a re-analysis of the deposited data

How the results depend on the processing

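With TMM 4898 genes were called, 2669 higher and 2229 lower. The split moved most under 3 settings. With total counts the counts were 11592, 656 and 10936; with library sizes without the 100 most abundant genes 9184, 1310 and 7874; and with limma on log2(FPKM + 1), which also changes the test and tests 9783 genes, 8803, 681 and 8122. Under these 3 settings the median log2 fold change of the 10 genes was 0.52, 1.07 and 0.53, and 6, 8 and 6 were called higher. Cap1 was below 0 with total counts (-0.56) and FPKM (-0.43) and near 0, not called, without the 100 genes (-0.01). Wdr1 was below 0 in all 3 (-0.88, -0.34 and -0.85), and Cotl1, not called, with total counts (-0.17) and FPKM (-0.22). Actb, Actg1, Tmsb4x, Tmsb10, Pfn1, Cfl1 and Coro1a kept their direction under every alternative run. Total counts move the median of all genes by -1.13 against TMM, and move all genes by nearly that amount. Cap1 (0.66) and Wdr1 (0.34) therefore stood alike against that median under both scalings by construction. That likeness does not settle their direction. For the other 2 settings the cause was not tested.

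Leaving out 1 library gave 3582 to 4656 genes, 2226 to 2542 higher and 1356 to 2142 lower; 1356 and 1419 lower genes came from dropping wild-type replicates 2 and 3. The median of the 10 genes was then 1.59 to 1.78, with 8 to 10 called higher. Cap1 lost its call without wild-type replicate 2 (0.48) or 3 (0.58) or knockout replicate 1 (0.46) or 3 (0.57), and Wdr1 without wild-type replicate 2 (0.24) or 3 (0.27) or knockout replicate 1 (0.24) or 2 (0.21). With total counts leaving out 1 library gave 10752 to 11437 genes. The fit with the replicate number as a block called 4373 genes and all 10 members. Deviations of libraries with the same number correlated at 0.041, -0.005 and 0.048. Wild-type replicates 1 and 3 correlated best with their own number, and replicate 2 with another (0.029). All values over pairs of libraries were close to 0, from -0.075 to 0.048, so they cannot decide whether the numbers pair the libraries. Cap1 had the fewest counts of the 10 genes, 186 to 378 in a library.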

Other observations

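Tubulin, the subunit of the other large cytoskeletal polymer, also differed. Of 13 tubulin and stathmin genes tested 11 rose, 0 fell and 2 did not pass with TMM, at a median log2 fold change of 1.41 (0.30 with total counts, where 6 were called higher and 4 lower). Tuba1b rose from 507 ± 37.0 to 2049 ± 141 CPM (n = 3 each, log2 2.01, SE 0.08, edgeR adjusted p = 1.3e-07), Tuba1c by 2.10 and Tuba1a by 2.13 on the log2 scale. Stmn1, stathmin, which binds tubulin dimers as thymosins bind actin monomers, rose from 644 ± 70.1 to 2174 ± 89.1 CPM (n = 3 each, log2 1.75, SE 0.08). All 4 were also called higher with total counts, Tuba1b at 0.88, Tuba1c at 0.96 and Stmn1 at 0.62. Tuba4a, named after its value was seen, had the largest difference of the list (264.5 ± 27.5 to 1637 ± 275 CPM, n = 3 each, log2 2.63, SE 0.13). Tubb5, also named after its value was seen, had the highest level of the list, at 3572 ± 49.6 and 4073 ± 223 CPM (n = 3 each). It rose little with TMM (log2 0.19, SE 0.06) and was called lower with total counts (-0.94). The alpha-tubulin genes are near-copies that can share reads.

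Among the processed pseudogene rows that share sequence with the actin genes, Gm12715 held 2833, 3295 and 3743 counts in wild type against 15629, 14204 and 9262 in knockout. Actg-ps1 held 89, 120 and 138 counts against 1010, 1127 and 617.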
